A study of Danio rerio with 12 samples.

Results

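The genes described here mark the making of neurons in the zebrafish embryo: the SoxB1 transcription factors sox2, sox3 and sox19a, the basic helix-loop-helix (bHLH) factors neurog1, ascl1a, ascl1b, neurod4, neurod1 and atoh1a, and the neuronal RNA-binding protein gene elavl3. They were chosen by name, 10 symbols that fall on 11 of the 31901 gene IDs listed. Of these, 9 IDs passed a filter on low values, which asks for 1 FPKM or more in 4 or more of the 12 libraries, and were tested among 14433 genes. The other two were atoh1a, listed at 0 in all 12 libraries, and a further ID that carries the symbol ascl1b.

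SoxB1 factors hold cells of the neural plate and neural tube as dividing progenitors. Proneural bHLH factors, which bind DNA as dimers with E proteins, push single cells among them towards a neuronal fate, switch on Delta ligands and so keep neighbouring cells in the progenitor state through Notch and the Her repressors. Factors of the Neurod kind act later in the same cells, and elavl3 is switched on as the new neuron leaves the cell cycle.

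RNA was sequenced from whole wild-type embryos in 12 libraries, 4 from each of 3 groups. The control group was held in 0.1% DMSO, the second group in 75 µM GW9662, which binds the nuclear receptor PPARγ covalently and inhibits it, and the third in 25 µM rosiglitazone, an agonist of that receptor. All exposures ran from 6 to 24 hours post-fertilisation, and the labels do not say whether the compound groups also held DMSO, how many embryos made a library or whether replicates came from separate clutches, so p-values measure only the spread between these libraries. The comparisons ask how the genes differ between embryos held in each compound and those held in DMSO. Whether the receptor was inhibited or activated in these embryos was not tested. Since the doses differ, values for the compounds are not a comparison of potency.

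Groups follow the titles and library names, because the treatment field of the labels goes against them, with TBBPA entered where the title says GW9662 and DMSO where it says rosiglitazone. A batch tag gives each library an hour post-fertilisation of its own, from 24 to 35, rising through the groups, so the tag and the group cannot be told apart. What the tag records is not clear. If it is the age of the embryos, age and group cannot be told apart either. Fragments assigned to genes ranged from 12.77 to 19.04 M in the DMSO libraries, from 16.24 to 22.75 M in GW9662 and from 15.16 to 21.48 M in rosiglitazone. At least some markers of muscle, lens, epidermis, blood, endothelium, notochord and neurons were present. Of the markers, mylpfa, epcam, alas2 and col8a1a were at or near 0, and cldni, krt5 and tie1 were also under the filter. The summed level of 6 neuron markers was 147 to 160 FPKM in DMSO, 122 to 137 in GW9662 and 121 to 143 in rosiglitazone. The summed level of 6 lens markers was 85.3 to 95.5 FPKM, 7.0 to 9.66 and 30.3 to 41.4 in the same order, and that of 6 skeletal muscle markers 7310 to 7610, 2660 to 3140 and 5250 to 6730. Of the tested markers, 6 of 6 lens genes fell with each compound, 5 of 5 muscle genes with GW9662 and 4 with rosiglitazone, and 3 of 6 neuron genes with GW9662 and 2 with rosiglitazone. Sums over epidermis, erythroid, endothelium and notochord markers overlapped between the groups, but single genes of these lists passed. With GW9662, 1 endothelium gene rose, and 1 each of the erythroid, endothelium and notochord genes fell. With rosiglitazone, 1 endothelium and 1 notochord gene rose, and 1 endothelium gene fell. None of the 3 tested epidermis genes passed. The part of tissue make-up in the results that follow was not tested.

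In embryos held in GW9662, sox3, ascl1a, ascl1b, neurog1 and neurod4 fell, while sox2, sox19a, neurod1 and elavl3 did not pass the test. In rosiglitazone, ascl1a was the only one of the 9 to pass, and it was lower. By the limma test no gene of the 9 was called higher in either comparison, nor was any at an unadjusted p under 0.05. In whole-embryo RNA, fewer cells of a type and less RNA per cell cannot be told apart. The share of all tested genes called was 36.0% for GW9662 against DMSO, 17.1% lower, against 5 of 9 members, all lower. For rosiglitazone it was 17.0%, 7.68% lower, against 1 of 9. The members were chosen with earlier results of these data known, so these shares are a description only. The median log2 change of the members was -0.31 with GW9662, against 0.01 over all genes tested, and -0.08 with rosiglitazone, against 0.00.

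**Figure D1:**
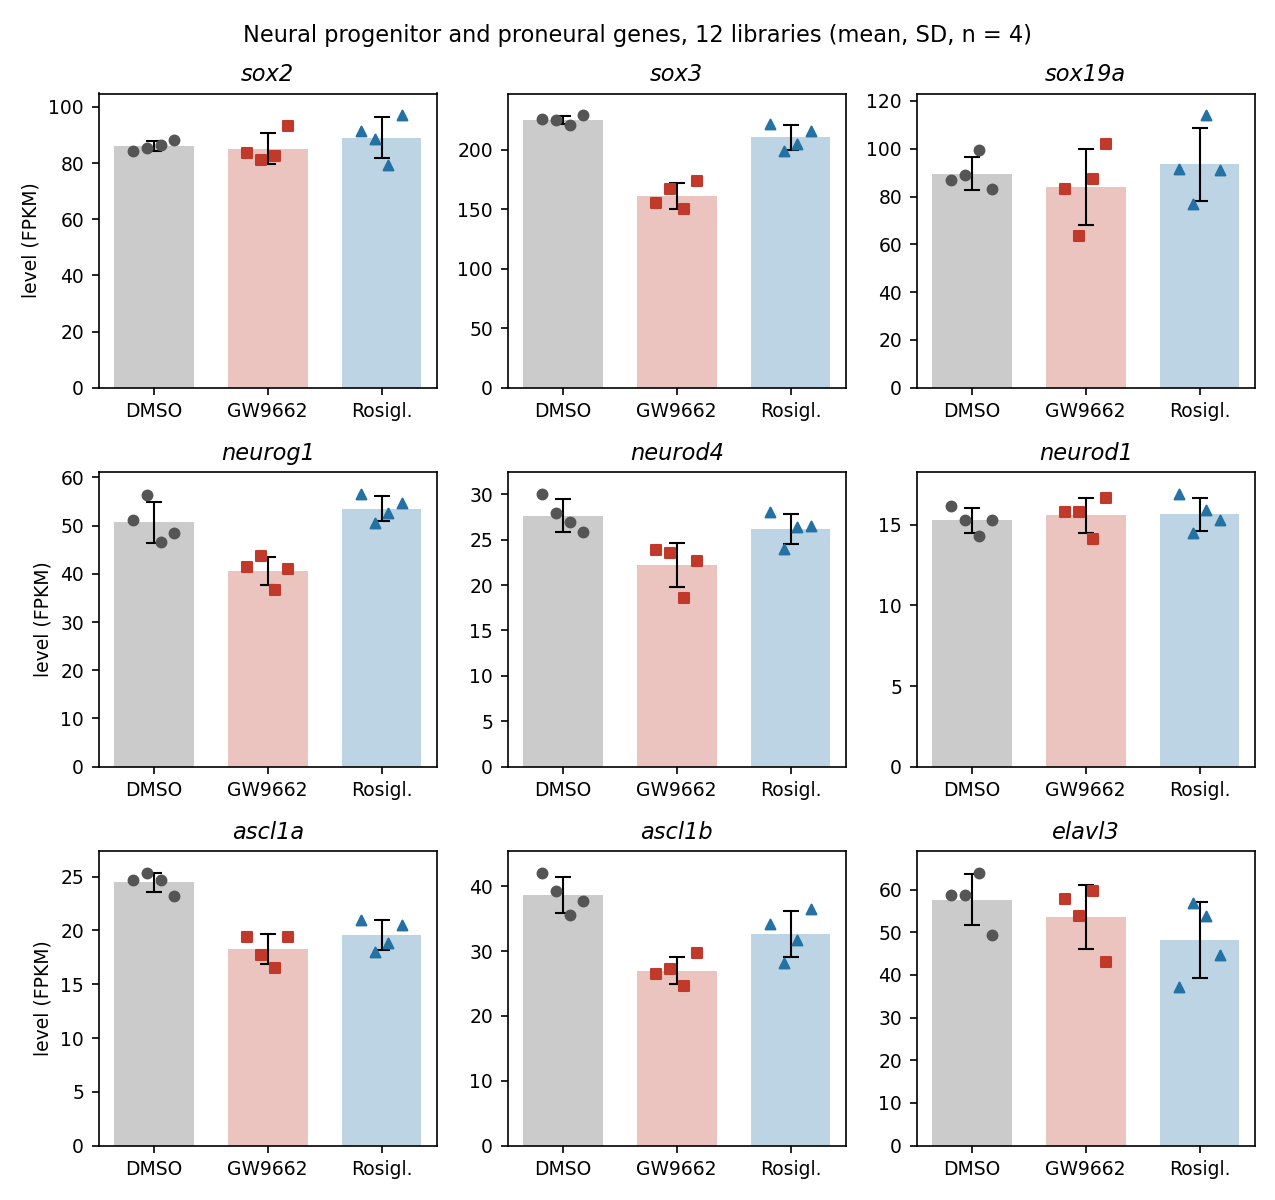
Level in FPKM (linear axis from 0) of the 9 tested genes in each library, by group; points are libraries, bars are means and whiskers are the SD (n = 4). The 4 GW9662 libraries lie below the 4 DMSO libraries for sox3, neurog1, neurod4, ascl1a and ascl1b, and the rosiglitazone libraries do so for ascl1a.

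The members lie on different chromosomes apart from sox3 (chromosome 14, 32742701 to 32744464) and neurog1 (chromosome 14, 26703331 to 26704829), both on the minus strand. The others that passed a test were ascl1b on chromosome 7 (49715750 to 49717195, plus strand), ascl1a on chromosome 4 (17417111 to 17419193, plus strand) and neurod4 on chromosome 23 (28343988 to 28347039, minus strand). Coordinates are those of the deposited table (build not given in the sources used here).

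FPKM is scaled for gene length, so levels can be ordered between genes. In DMSO embryos sox3 was highest, at 225 ± 3.34 FPKM (SD, n = 4), above 98.0% of tested genes. It was followed by sox19a at 89.5 ± 6.92 and sox2 at 86.0 ± 1.70 FPKM, whose libraries overlapped. Then came elavl3 at 57.6 ± 6.00 and neurog1 at 50.7 ± 4.21 FPKM, which overlapped too. The rest stood apart from their neighbours in every DMSO library: ascl1b at 38.6 ± 2.73, neurod4 at 27.7 ± 1.80, ascl1a at 24.5 ± 0.878 and neurod1 at 15.3 ± 0.758 FPKM, the last above 72.7% of tested genes. The step from neurod4 to ascl1a was small, with a lowest neurod4 library at 25.8 and a highest ascl1a library at 25.3 FPKM. The SoxB1 members thus stood above the proneural members in level. This order did not extend to SoxB genes outside the members, such as sox19b at 48.1 and sox1b at 20.4 FPKM in DMSO. The early proneural factor neurog1 stood 3.32 ± 0.250 times above the later neurod1 within a library.

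Among the SoxB1 factors, sox3 was measured at 226, 225, 221 and 229 FPKM in DMSO replicates 1 to 4, at 155, 167, 150 and 174 FPKM in GW9662 and at 222, 199, 205 and 216 FPKM in rosiglitazone. All GW9662 libraries were below all others, while the rosiglitazone libraries overlapped the DMSO libraries. These values rest on 4611 to 8177 fragments per library. Against DMSO, sox3 fell 1.40-fold with GW9662, a log2 change of -0.48 (SE 0.0517, limma adjusted p = 9.45e-06). The change with rosiglitazone was -0.10 (95% interval -0.21 to 0.01, adjusted p = 0.228).

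The related factor sox2, which shares target sites with sox3, stood at 84.2, 85.2, 86.3 and 88.2 FPKM in DMSO, at 83.7, 80.9, 82.5 and 93.2 FPKM in GW9662 and at 91.5, 88.4, 79.3 and 97.0 FPKM in rosiglitazone. The groups overlapped throughout. Its log2 change was -0.02 with GW9662 (95% interval -0.15 to 0.11, adjusted p = 0.861) and 0.05 with rosiglitazone (-0.08 to 0.18, adjusted p = 0.667). For sox2 the interval with GW9662 therefore ended short of the value measured for sox3. Within single libraries the ratio of sox3 to sox2 ran from 2.56 to 2.69 in DMSO, from 1.82 to 2.06 in GW9662 and from 2.23 to 2.58 in rosiglitazone.

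The fish SoxB1 gene sox19a was the most scattered of the 3. It was at 87.1, 88.8, 99.3 and 83.0 FPKM in DMSO, at 83.1, 63.4, 87.3 and 102 FPKM in GW9662 and at 91.7, 76.9, 114 and 91.2 FPKM in rosiglitazone. A low and a high library in each compound group spanned the whole DMSO range. The changes were -0.11 (95% interval -0.40 to 0.18, adjusted p = 0.562) and 0.05 (-0.24 to 0.34, adjusted p = 0.850). The GW9662 interval holds the falls given for neurog1 and neurod4, so a fall of that size is not excluded at this spread. The SD of sox19a within groups, 0.220 on the log2 scale, was above that of 97.8% of the 580 genes within 1.5-fold of its level. Summed, sox2, sox3 and sox19a came to 401 ± 3.91 FPKM (SD, n = 4) in DMSO, 331 ± 26.0 with GW9662 and 393 ± 19.2 with rosiglitazone. SoxB1 genes outside the members, such as sox19b, are not in this sum. Of the sum, sox3 made up 56.2 ± 1.29, 49.0 ± 3.16 and 53.6 ± 1.58% in the same order.

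Among the proneural factors, neurog1, which starts neurogenesis in cranial ganglia and in spinal sensory neurons, was at 51.1, 56.4, 46.7 and 48.5 FPKM in DMSO, at 41.4, 43.6, 36.7 and 40.9 FPKM in GW9662 and at 56.5, 50.5, 52.6 and 54.6 FPKM in rosiglitazone. The GW9662 libraries were below every library of the other groups, which overlapped each other. It fell 1.24-fold with GW9662, a log2 change of -0.31 (SE 0.0657, limma adjusted p = 0.00214). With rosiglitazone the change was 0.08 (95% interval -0.06 to 0.22, adjusted p = 0.462).

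The paralogous bHLH factors ascl1a and ascl1b drive neurogenesis in other domains of the brain and in the retina. For ascl1b the values were 42.0, 39.3, 35.5 and 37.7 FPKM in DMSO, 26.4, 27.2, 24.6 and 29.7 FPKM in GW9662 and 34.2, 28.2, 31.7 and 36.5 FPKM in rosiglitazone. Those for ascl1a were 24.7, 25.3, 24.7 and 23.2 FPKM, 19.4, 17.7, 16.5 and 19.4 FPKM, and 21.0, 18.0, 18.8 and 20.5 FPKM in the same order. For ascl1a both compound groups lay below all DMSO libraries, while for ascl1b this held for GW9662 and the highest rosiglitazone library reached into the DMSO range. With GW9662 the log2 change was -0.51 for ascl1b (SE 0.0810, limma adjusted p = 0.000282), the largest of the 9, and -0.42 for ascl1a (SE 0.0638, adjusted p = 0.000219). With rosiglitazone it was -0.32 for ascl1a (SE 0.0638, adjusted p = 0.00417) and -0.24 for ascl1b (95% interval -0.42 to -0.07), which missed the threshold at an adjusted p of 0.0573. The call of ascl1b with rosiglitazone turned on settings, and its adjusted p ran from 0.0134 to 0.154 over 24 settings. Both DMSO comparisons share the same 4 control libraries, so low rosiglitazone and GW9662 values of ascl1a against DMSO are not separate evidence.

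Between the paralogs, ascl1b stood 1.58 ± 0.111, 1.48 ± 0.0813 and 1.66 ± 0.0934 times above ascl1a in DMSO, GW9662 and rosiglitazone libraries (SD, n = 4). Both compound groups overlapped DMSO in this ratio, but GW9662, at 1.36 to 1.53, did not overlap rosiglitazone, at 1.56 to 1.78.

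A further gene ID with the symbol ascl1b, just upstream of the first on chromosome 7 (49695904 to 49715154, plus strand, with a model of 4674 bases), was far lower. Its fragments summed to 52 in the DMSO libraries, 103 with GW9662 and 58 with rosiglitazone, or 0.168 ± 0.0540, 0.301 ± 0.0724 and 0.170 ± 0.0910 FPKM (SD, n = 4). These levels were under the filter and were not tested. A reference table of another assembly gives this ID a clone name in place of the symbol.

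Downstream of the proneural step, the Neurod factors parted. The gene neurod4 was at 30.0, 27.9, 26.9 and 25.8 FPKM in DMSO, at 23.9, 23.5, 18.6 and 22.7 FPKM in GW9662 and at 28.0, 24.0, 26.4 and 26.5 FPKM in rosiglitazone. The GW9662 libraries were again below all others, by a narrow margin against the lowest rosiglitazone library. It fell 1.25-fold with GW9662, a log2 change of -0.32 (SE 0.0788, limma adjusted p = 0.00663), against -0.08 with rosiglitazone (95% interval -0.25 to 0.09, adjusted p = 0.572).

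Its relative neurod1, also a factor of endocrine cells and of sensory neurons, was at 16.2, 15.3, 14.3 and 15.3 FPKM in DMSO, at 15.8, 15.8, 14.1 and 16.7 FPKM in GW9662 and at 16.9, 14.5, 15.9 and 15.3 FPKM in rosiglitazone. The 3 groups covered the same range. Changes were 0.03 with GW9662 (95% interval -0.11 to 0.16, adjusted p = 0.793) and 0.03 with rosiglitazone (-0.11 to 0.17, adjusted p = 0.799). Within libraries the ratio of neurod4 to neurod1 was 1.68 to 1.88 in DMSO, 1.32 to 1.51 in GW9662 and 1.65 to 1.73 in rosiglitazone, and that of neurog1 to neurod1 was 3.16 to 3.69, 2.45 to 2.76 and 3.31 to 3.57. For both ratios the GW9662 libraries lay below all others.

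**Figure D2:**
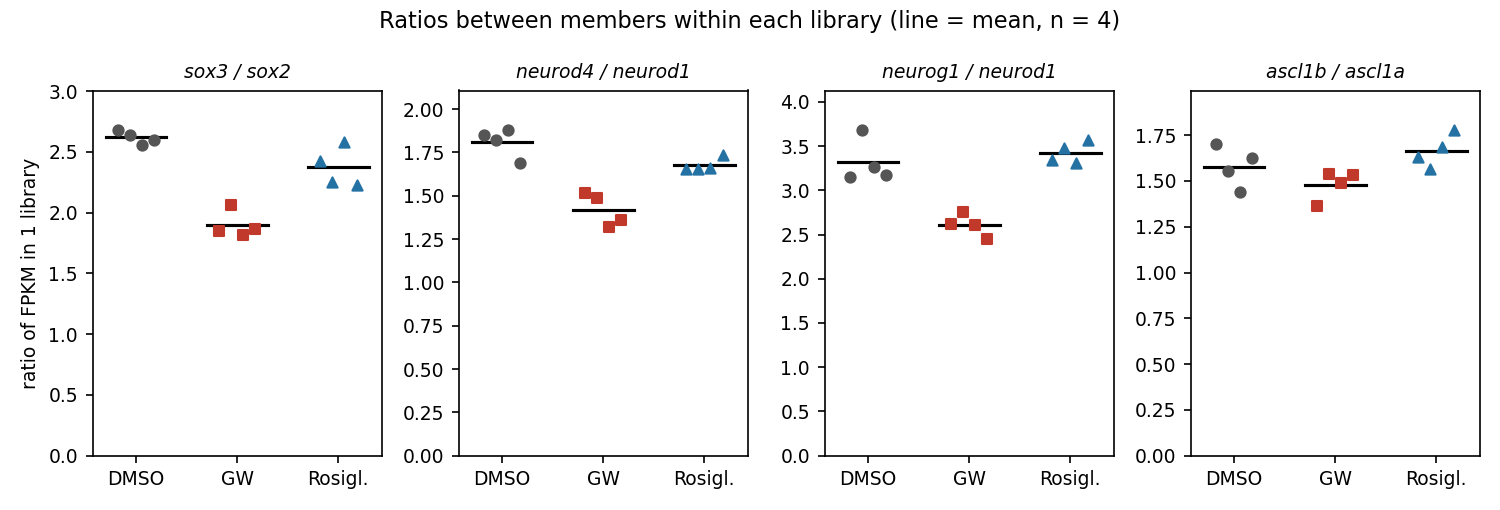
Ratios of FPKM between genes within each library (linear axis from 0), by group; points are libraries and lines are means (n = 4). For sox3 to sox2 the GW9662 libraries lie between 1.82 and 2.06, below DMSO at 2.56 to 2.69, whereas for ascl1b to ascl1a both compound groups overlap DMSO.

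The pan-neuronal gene elavl3 was at 58.6, 58.6, 63.8 and 49.4 FPKM in DMSO, at 57.7, 53.8, 59.7 and 43.1 FPKM in GW9662 and at 37.2, 56.8, 53.9 and 44.7 FPKM in rosiglitazone. The groups overlapped, with a low library in each. Its log2 changes were -0.11 with GW9662 (95% interval -0.40 to 0.18, adjusted p = 0.571) and -0.27 with rosiglitazone (-0.56 to 0.02, adjusted p = 0.204). The SD of elavl3 within groups was 0.218 on the log2 scale, above that of 97.4% of the 917 genes within 1.5-fold of its level, although each value rests on 2501 to 6406 fragments.

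That scatter had an order. In every group the library with the lowest elavl3 had the highest sox3 (replicate 4 of DMSO, 4 of GW9662 and 1 of rosiglitazone), and the library with the highest elavl3 had the lowest sox3 (replicates 3, 3 and 2). The same libraries were the extremes of a measure of transcript length, the median deviation from the group mean of 3405 genes of at least 4000 bases minus that of 5913 genes under 2000 bases. This balance ran from -0.058 to 0.062 (log2) within DMSO, from -0.081 to 0.050 within GW9662 and from -0.140 to 0.103 within rosiglitazone. The gene model of elavl3 is 4629 bases long and that of sox3 1764 bases. Between groups the balance moved little: against DMSO the median change was 0.01 for long and 0.01 for short genes with GW9662, and 0.00 and 0.01 with rosiglitazone.

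A balance of the same kind, from deviations from each gene's mean over all 12 libraries, was added as a further term of the model. With this term, an alternative chosen after the scatter was seen, the SE of elavl3 went from 0.133 to 0.0398. Its change with rosiglitazone was then -0.25 (limma adjusted p = 0.000892) and that with GW9662 -0.11 (adjusted p = 0.0457). Between the compounds it was then higher in GW9662, by 0.14 (adjusted p = 0.0164), the one member called higher in this fit. In the same fit sox3 passed with rosiglitazone at -0.10 (adjusted p = 0.0336), as did ascl1b at -0.25 (adjusted p = 0.0134). The scatter of sox19a was not reduced, with an SE of 0.138. The genes called over the whole table in this fit numbered 6198 with GW9662 and 3381 with rosiglitazone, against 5196 and 2450 without the term.

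**Figure D3:**
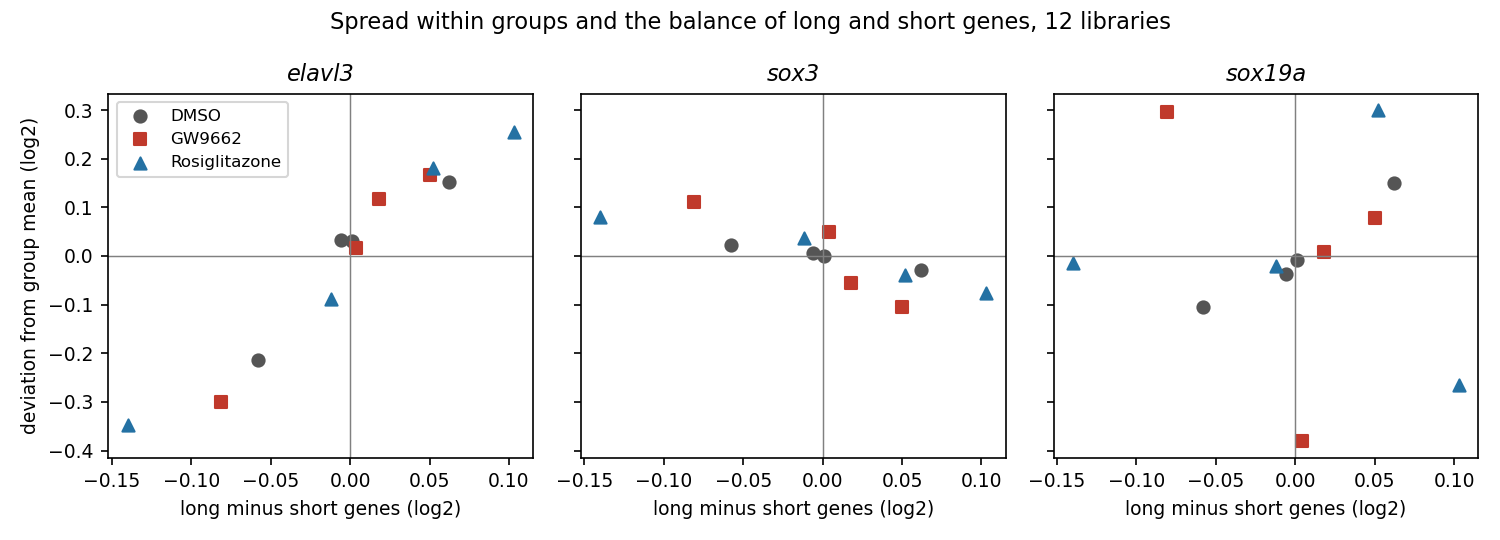
Deviation of elavl3, sox3 and sox19a from their group means (log2, vertical axis) against the balance of long and short genes in each library (log2, horizontal axis); each point is a library. The libraries with the lowest balance, at -0.058, -0.081 and -0.140, hold the lowest elavl3 and the highest sox3 of their groups. For sox19a no such order holds in all 3 groups. The library with the lowest balance has the lowest sox19a in DMSO and the highest in GW9662.

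Of the 10 genes, atoh1a, the atonal factor of hair cells and of the cerebellar rhombic lip, had no fragment in any of the 12 libraries. A count of 0 allows up to 3 fragments, which is 0.0809 to 0.144 FPKM at these depths and covers counting error only. The gene lies on chromosome 8 (29593986 to 29595615, plus strand) wholly inside AL807792.1 on the opposite strand, which was also listed at 0. Whether counting used strand is not stated, so how fragments shared by the overlapping genes were assigned cannot be told, and the 0 is not a measure of absence. Of 1086 protein-coding genes that lie wholly inside a gene on the opposite strand, 14.8% were at 0 in all libraries, against 7.0% of 23415 not inside another gene. The genes sox3 and sox2 also lie wholly inside longer models on their own strand (BX088596.1 and FP102167.1), where 29.8% of 930 protein-coding genes were at 0, yet both were among the highest here, and the longer models reached at most 0.413 and 3.61 FPKM.

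The paralog atoh1b, an early factor of the otic vesicle, was measured at 14.2 ± 0.750 FPKM (SD, n = 4) in DMSO, at 8.72 ± 1.16 in GW9662 and at 8.47 ± 1.59 in rosiglitazone. Both compound groups lay below all DMSO libraries. It fell by 0.68 on the log2 scale with GW9662 (limma adjusted p = 0.000527) and by 0.73 with rosiglitazone (adjusted p = 0.000906).

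Setting the compounds against each other asks where inhibitor and agonist libraries part, at 75 and 25 µM. Of the 9 genes 4 were called, all lower in GW9662: sox3, neurog1, ascl1b and neurod4. Over all tested genes 30.5% were called, 14.5% lower in GW9662. The difference for sox3 was -0.38 (SE 0.0517, limma adjusted p = 0.000108) and that for neurog1 -0.40 (SE 0.0657, adjusted p = 0.000535), both without overlap between the groups. Those for ascl1b, at -0.27 (adjusted p = 0.0238, groups overlapping), and neurod4, at -0.24 (adjusted p = 0.0347), were lost under several settings given in the closing part. For ascl1a, which fell with both compounds, the difference was -0.10 (95% interval -0.24 to 0.04, adjusted p = 0.277). For elavl3 it was 0.16 (95% interval -0.13 to 0.45, adjusted p = 0.410), and it passed, higher in GW9662, only in the fit with the length term. Groups did not overlap for 5 of 9 genes with GW9662 against DMSO, where 37.0% of all tested genes did not, for 1 of 9 with rosiglitazone against DMSO, where 20.5% did not, and for 3 of 9 between the compounds, where 29.4% did not.

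**Figure D4:**
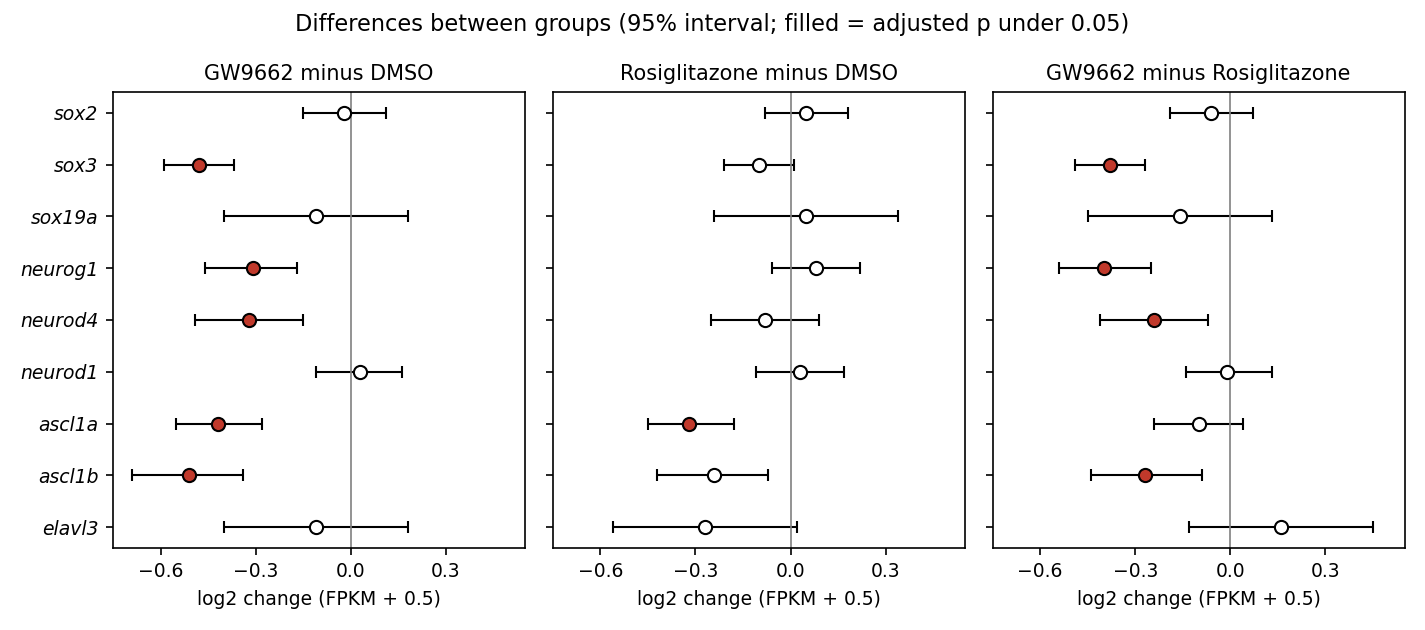
Log2 difference between groups for the 9 tested genes in the 3 comparisons; whiskers are the 95% interval of the limma fit and filled points have an adjusted p under 0.05. All filled points lie left of 0, with sox3 at -0.48 and ascl1b at -0.51 for GW9662 against DMSO.

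The genes that act with these factors were read from 10 lists of 144 symbols, of which 137 were matched and 109 gene IDs tested. With GW9662 12 rose and 45 fell, so that 52.3% were called and 41.3% were lower, against 36.0 and 17.1% of all genes tested. With rosiglitazone 9 rose and 24 fell, so that 30.3% were called and 22% were lower, against 17.0 and 7.68%. These comparisons share their controls. The lists were chosen with earlier results of these data known, so the shares are a description only. They also count near-identical copies of her4 and her15 as separate IDs. With GW9662 the share called was under that of all genes for the other SoxB genes (25.0%), the Delta and Notch genes (23.1%), the sensory ganglion genes (27.3%) and the hair cell and granule lineage genes, of which none passed. It was 41.2% for the proneural targets, 50% for the E proteins, 60% for the neuron genes and 62.5% for the other bHLH genes. For the Id and Her antagonists it was 81.2%, and for the stem cell and radial glia genes 92.3%. With rosiglitazone the share was under that of all genes for the E proteins and the hair cell and granule lineage genes, again with none that passed limma (at an unadjusted p under 0.05, 1 of 2 E proteins, lower, and none of the 5 lineage genes). The other lists ran from 23.1% for the Delta and Notch genes to 43.8% for the Id and Her antagonists.

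Of 4 other SoxB genes tested, 1 passed with each compound. This was sox19b, a SoxB1 gene also supplied by the mother, which fell with GW9662 and rose with rosiglitazone, from 48.1 ± 1.14 FPKM in DMSO to 41.4 ± 2.91 and 53.9 ± 2.01 (log2 -0.21, limma adjusted p = 0.00452, and 0.16, adjusted p = 0.0431). The neural gene sox1b, at 20.4 ± 1.53, 21.4 ± 1.75 and 21.7 ± 1.03 FPKM, and the SoxB2 repressor sox21b, at 39.1 ± 1.76, 38.6 ± 2.78 and 43.8 ± 2.36 FPKM, passed in neither comparison with DMSO. The median change of the list was -0.06 with GW9662 and 0.12 with rosiglitazone. The genes sox1a and sox21a were listed at 0 in all 12 libraries, and whether this was absence or the assignment of fragments was not tested.

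Of 13 neural stem cell and radial glia genes, 4 rose and 8 fell with GW9662 (median -0.22), and 2 rose and 2 fell with rosiglitazone (median 0.05). The radial glia gene fabp7a, a fatty-acid binding protein, fell from 161 ± 12.8 to 72.1 ± 18.4 FPKM with GW9662 (log2 -1.18, limma adjusted p = 1.98e-05) and was at 168 ± 16.8 FPKM in rosiglitazone. The glial glutamate transporter gene slc1a2b fell with both compounds, from 14.2 ± 0.580 FPKM to 8.86 ± 0.786 and 9.25 ± 0.544 (adjusted p = 6.71e-06 and 6.83e-05). Another transporter gene, slc1a3a, fell with GW9662 and rose with rosiglitazone, from 126 ± 4.90 FPKM to 106 ± 6.83 and 169 ± 8.57 (adjusted p = 0.00248 and 0.000155), a difference between the compounds of -0.67 (adjusted p = 1e-06).

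Other proneural and neural bHLH genes included 5 of 8 that fell with GW9662 (median -0.37) and 3 that fell with rosiglitazone (median -0.21). By limma none was called higher, and none was at an unadjusted p under 0.05. Beside atoh1b, nhlh2, a factor of early neurons, went from 24.7 ± 0.946 FPKM to 19.0 ± 1.03 with GW9662 and 16.4 ± 1.35 with rosiglitazone, log2 changes of -0.37 and -0.58 (limma adjusted p = 0.000389 and 3.77e-05). The repressor bhlhe22 fell with GW9662 from 9.78 ± 0.281 to 6.57 ± 0.451 FPKM (adjusted p = 6.16e-05), with 9.15 ± 0.882 FPKM in rosiglitazone. Of the E proteins that pair with all these factors, tcf12 rose with GW9662 from 21.6 ± 0.737 to 24.7 ± 0.973 FPKM (log2 0.19, adjusted p = 0.0271), and tcf3a did not pass, at 5.01 ± 1.07 and 4.87 ± 1.04 FPKM.

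The Id and Her antagonists of bHLH factors had the lowest median of the 10 lists with GW9662, with 11 of 16 IDs lower and 2 higher with GW9662 (median -0.54), and 6 lower and 1 higher with rosiglitazone (median -0.22). The Notch effector her4.1 fell from 10.3 ± 0.787 to 4.34 ± 0.589 FPKM with GW9662 (log2 -1.17, limma adjusted p = 5.85e-07), against 8.49 ± 0.652 FPKM in rosiglitazone. For her13 the levels were 27.0 ± 1.26, 15.5 ± 1.03 and 20.3 ± 2.43 FPKM, a fall with both compounds (adjusted p = 3.85e-06 and 0.00264). The her4 and her15 genes are near-identical tandem copies, and her4.2 has a pair of IDs (log2 changes of -1.11 and -1.03 with GW9662), so the split of fragments between them is uncertain. All her4 and her15 IDs tested fell with GW9662. Each counts singly, so the median and counts of the list lean on these copies. Chosen after its values were seen, id3, whose protein blocks E proteins, was a list member that rose, from 74.6 ± 3.31 to 107 ± 3.49 FPKM with GW9662 (adjusted p = 1.27e-05).

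Among Delta ligands and Notch receptors 1 of 13 rose and 2 fell with GW9662 (median -0.04), and 1 rose and 2 fell with rosiglitazone (median -0.02). The ligand dlb stood at 76.6 ± 2.01 FPKM in DMSO, 78.7 ± 4.19 in GW9662 and 57.1 ± 5.02 in rosiglitazone, and fell with rosiglitazone (log2 -0.42, limma adjusted p = 0.000322). The receptor genes notch2 and notch3 went apart with GW9662, notch2 rising from 9.73 ± 0.707 to 13.3 ± 0.982 FPKM (adjusted p = 0.000676) and notch3 falling from 40.6 ± 4.04 to 31.8 ± 2.59 FPKM (adjusted p = 0.0116).

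Of 17 proneural targets and early differentiation genes, 6 fell and 1 rose with GW9662 (median -0.11), and 7 fell with rosiglitazone (median -0.21), where limma called none higher, also none at an unadjusted p under 0.05. The share called with GW9662, 41.2%, was near the 36.0% of all genes tested. With rosiglitazone it was also 41.2%, against 17.0%. The zinc-finger genes of the Insm1 kind, which act just after the proneural step, fell with both compounds. For insm1a the levels were 38.7 ± 1.45, 28.7 ± 2.15 and 28.3 ± 1.68 FPKM in DMSO, GW9662 and rosiglitazone (limma adjusted p = 9.12e-05 and 0.000215), and for insm1b 36.1 ± 1.35, 27.1 ± 1.41 and 22.4 ± 0.888 FPKM (adjusted p = 2.65e-05 and 1.52e-06). The Snail-family gene scrt1a fell too, from 11.8 ± 1.05 to 7.52 ± 0.690 and 6.31 ± 0.472 FPKM (adjusted p = 5.24e-05 and 1.47e-05). Chosen after its values were seen, gadd45ga was the gene of the list that rose with GW9662, from 1.77 ± 0.486 to 4.43 ± 0.976 FPKM (adjusted p = 0.00309).

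Of 20 neuron genes, 11 fell and 1 rose with GW9662 (median -0.26), and 4 fell and 1 rose with rosiglitazone (median -0.09). The tubulin gene tubb5 fell from 255 ± 4.56 to 165 ± 5.89 and 196 ± 10.8 FPKM (limma adjusted p = 2.09e-07 and 8.30e-05). The growth-cone gene stmn2a went from 20.5 ± 1.85 to 14.4 ± 0.491 and 16.4 ± 0.842 FPKM (adjusted p = 5.96e-05 and 0.00559). The motor neuron gene isl2a, chosen after its values were seen, was the one that rose with each compound, from 17.2 ± 1.93 to 23.9 ± 1.78 and 21.9 ± 0.723 FPKM (adjusted p = 0.000308 and 0.00658).

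Sensory ganglion genes, some of them in lineages that neurog1 starts, included 2 of 11 that rose and 1 that fell with GW9662 (median 0.08), and 3 that rose with rosiglitazone (median 0.18). The zinc-finger gene prdm14 rose with both, from 3.12 ± 0.142 to 3.99 ± 0.270 and 4.46 ± 0.391 FPKM (limma adjusted p = 0.00784 and 0.00159). The ATP receptor gene p2rx3b rose with GW9662 from 1.55 ± 0.139 to 2.27 ± 0.273 FPKM (adjusted p = 0.0133), and the homeodomain gene phox2bb fell from 6.35 ± 0.150 to 4.67 ± 0.193 FPKM (adjusted p = 0.000268). None of the 5 tested hair cell and granule lineage genes passed limma's adjusted threshold in any comparison (at an unadjusted p under 0.05, 0 with either compound against DMSO and 1 between the compounds), among them lhx2b at 4.48 ± 0.848, 4.3 ± 0.877 and 4.53 ± 0.992 FPKM and lhx9 at 2.39 ± 0.220, 2.07 ± 0.113 and 2.17 ± 0.137 FPKM. Another 7 genes of that list were under the filter, and the tested barhl1a, barhl2 and myo6b were near it, at 0.878, 0.891 and 1.35 FPKM in DMSO. The lack of calls therefore says little about hair cells or granule cells.

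**Figure D5:**
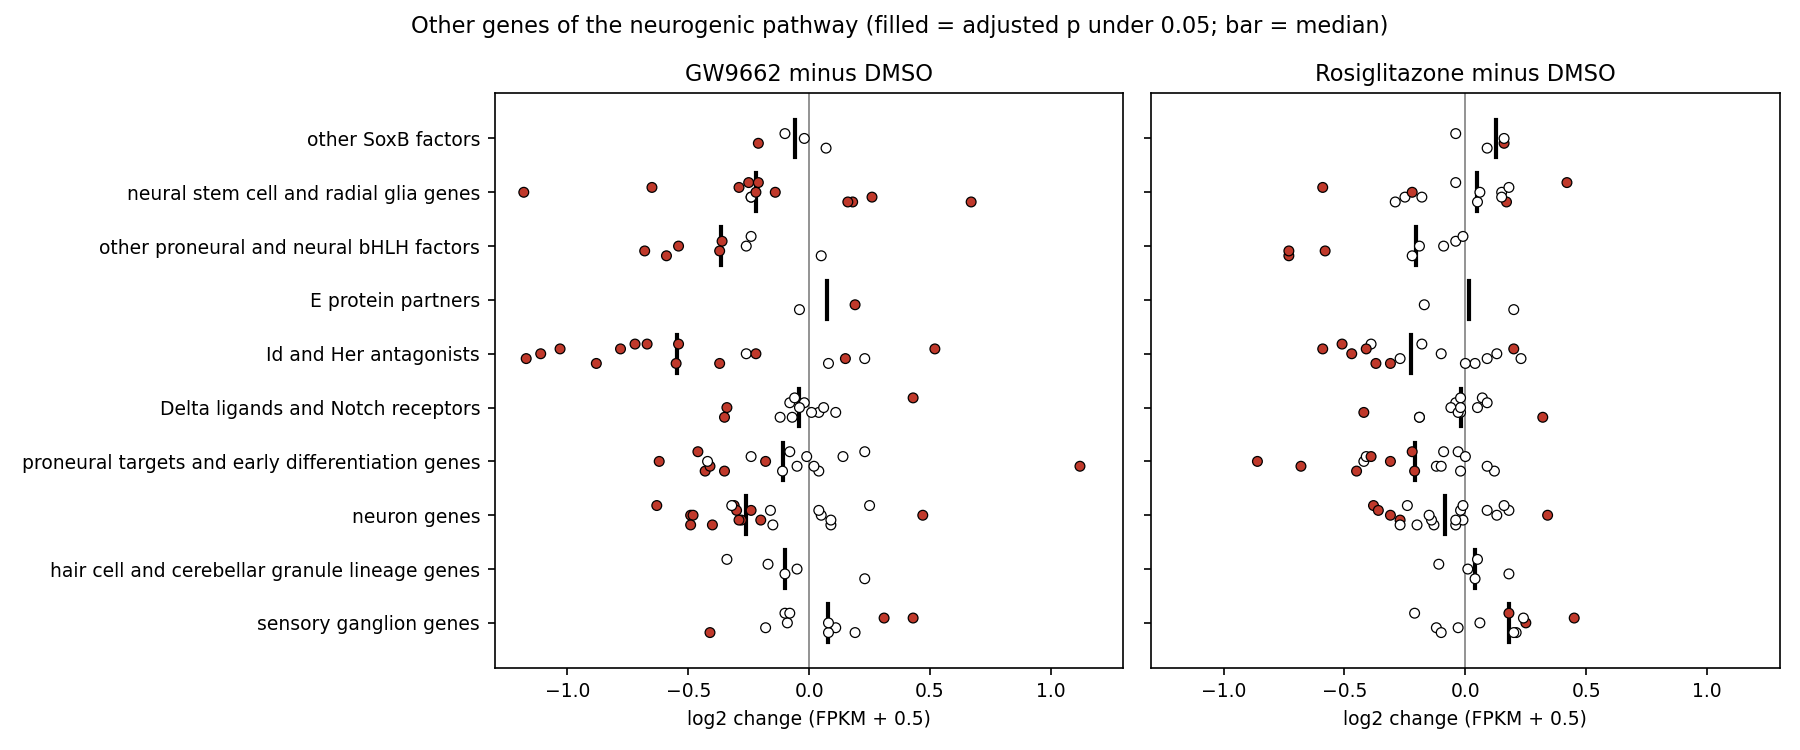
Log2 change of each tested gene of the 10 lists (horizontal axis, same scale in both panels) against DMSO; filled points have an adjusted p under 0.05 and the vertical bar is the median of the list. Id and Her antagonists, where each her4 and her15 copy is a point of its own, have the lowest median with GW9662, -0.54. Sensory ganglion genes have the highest, 0.08.

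For each of the 9 genes, the tested genes whose log2 level followed it best over the 12 libraries were looked up, as a description in which the points share group differences and library make-up. For sox3 these were tuba8l4, an alpha-tubulin gene (r = 0.986), f7i (r = 0.984) and marcksb (r = 0.984). For ascl1a they were cox5b2 (r = 0.972), insm1a (r = 0.964) and akr1b1 (r = 0.962). Between ascl1a and insm1a the correlation of deviations from the group means was 0.979. The pairs were picked on these same libraries, so such values are not separate evidence. Such correlations were high for the other pairs looked up too, from 0.772 for neurod4 with fgf13b to 0.955 for elavl3 with kat6b. The gene nearest to ascl1b was mibp (r = 0.974), to neurog1 wdr83os (r = 0.963), to neurod4 cox6a1 (r = 0.927) and to neurod1 the fibrinogen gene fgb (r = 0.923). The nearest to elavl3 were hcfc1a (r = 0.959), kat6b (r = 0.957) and hcfc1b (r = 0.950), all with gene models over 4000 bases, at 6964, 6104 and 8027 bases. Long models were not particular to elavl3. They also occurred for marcksb, near sox3 (4105 bases), akr1b1, near ascl1a (5581 bases), and smarcb1b, near ascl1b (5089 bases). Other genes near these members had shorter models, such as tuba8l4 at 1709 and insm1a at 2430 bases. For sox2 and sox19a the highest values were lower, 0.849 with lrrc42 and 0.812 with slc2a12.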

How the data were processed

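RNA of 12 whole-embryo libraries was analysed from a table of FPKM (fragments per kilobase of gene length, scaled for depth) that the authors deposited, per the file headers with gene coordinates, strand and length. HISAT2 2.0.5, an aligner, and featureCounts 1.5.0-p3, a read counter, are the tools named, per the submitters' processing notes. Genome build and strand setting are not given in the sources used here. The labels' protocols describe both directional and non-directional libraries. FPKM times length gave whole multiples of a step per library for 100% of values (tolerance 0.001), from which depths were recovered. No count test was run.

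Levels were analysed as log2(FPKM + 0.5), which understates changes of low genes, for genes that reached 1 FPKM in 4 or more of 12 libraries. One limma 3.58.1 model (R 4.3.3, data.table version 1.17.8) with a trend was fitted to the 12 libraries with group as the factor and 3 two-sided contrasts. P-values were adjusted by Benjamini-Hochberg over all genes tested, at 0.05. Folds of change between groups are the limma log2 changes put back on a linear scale. The fit was tested on simulated data. Python 3.11.15 with pandas 2.3.3, numpy 2.4.6 and matplotlib 3.10.9 did the rest.

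Members and lists were chosen with earlier results of these data known. Named genes were the members, up to 3 genes per list with a group mean of 2 FPKM or more, ranked by their lowest adjusted p against DMSO, and the 3 genes nearest to each member by Pearson correlation. A list gene that this rule names is not reported here. Any other gene was chosen after its values were seen, apart from genes named for overlap, absence or as markers. Alternatives were other pseudocounts, filters, scalings, variance models and samples, a replicate block, each library left out, and a length term added later.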

Additional observations from a re-analysis of the deposited data

Results flagged for a closer look

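Each group of 4 libraries was searched for a library standing apart, where the gap to its nearest neighbour over the group's whole range was above Dixon's 95% critical value. Chance marks about 1 in 20 groups, and 9 of 189 were marked, none of them among the 9 tested members. The high libraries were DMSO replicate 3 for sox21b at 41.8 FPKM and for prdm14 at 3.33 FPKM, DMSO replicate 1 for her13 at 28.9 FPKM, DMSO replicate 4 for ubn2b at 19.0 FPKM, rosiglitazone replicate 2 for p2rx3b at 2.49 FPKM, replicate 1 for f7i at 3.66 FPKM and replicate 3 for cplx3b at 3.73 FPKM. The low libraries were GW9662 replicate 3 for tubb5 at 156 FPKM and DMSO replicate 2 for lhx9 at 2.06 FPKM.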

How the results depend on the processing

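The 5 genes that fell with GW9662 passed in all 24 settings, with log2 changes from -0.52 to -0.45 for sox3 and from -0.40 to -0.24 for neurod4, and no called change turned its sign. With rosiglitazone 1 member was called, against 2 with a filter of at least 5 FPKM (ascl1b), 3 with quantile normalization and 3 after rescaling to TPM (sox3 and ascl1b added), and 4 with the length term, which called 5 between the compounds, elavl3 among them as the one higher in GW9662. Without replicates in turn it was 1 to 2, 2 without DMSO replicate 3 or rosiglitazone replicate 4. Between the compounds 4 members were called, and 2 to 4 with libraries left out: 2 without GW9662 replicate 3, rosiglitazone replicate 1 or rosiglitazone replicate 4, where ascl1b (adjusted p = 0.0729, 0.0557 and 0.0730) and neurod4 (adjusted p = 0.0870, 0.0838 and 0.0713) missed the limma threshold. ascl1b also missed it without GW9662 replicate 1 (adjusted p = 0.0556), and neurod4 without rosiglitazone replicate 3 (adjusted p = 0.0705), with no filter (adjusted p = 0.0586), without the trend (adjusted p = 0.0532) and with the 2 groups alone (adjusted p = 0.0589). For each of these the cause was not tested. Of 621 member values under alternatives, 586 kept their sign and call. In 11 the sign turned, all of them uncalled before and after, for neurod1, sox19a and sox2, between -0.05 and 0.04.

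Over all genes tested, equal replicate numbers gave no clear pairing. Residual correlations ran from -0.0502 to 0.228 for GW9662 with DMSO, from -0.0103 to 0.0751 for rosiglitazone with DMSO and from 0.0377 to 0.199 between the compounds. In these comparisons 2, 1 and 1 of 4 libraries matched best with their own number. For elavl3 and the length balance, the lowest and highest libraries were replicates 4 and 3 in both DMSO and GW9662. In rosiglitazone they were replicates 1 and 2. With the replicate block 5, 2 and 4 members were called (ascl1b with rosiglitazone, adjusted p = 0.0406), and 5329, 2433 and 4454 genes.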
